A study of Homo sapiens with 12 samples.

Results

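The transcripts of 10 genes that govern the G1 phase of the cell cycle were followed in A375 cells, an established human melanoma cell line that carries mutant BRAF, after exposure to a BRAF inhibitor, a retinoid or both. The genes were fixed by name: the D-type cyclins CCND1, CCND2 and CCND3, the E-type cyclins CCNE1 and CCNE2, the cyclin-dependent kinases CDK2, CDK4 and CDK6, and the inhibitors CDKN1A (p21) and CDKN1B (p27). They are 10 of the 58347 genes counted, and all 10 were among the 16740 genes with enough counts to be tested, so none was lost to the filter on low counts. RNA was sequenced from 12 samples in 4 groups of 3 replicates: DMSO, the solvent control; tretinoin, which activates the retinoic acid receptors; vemurafenib, which inhibits mutant BRAF; and the vemurafenib + tretinoin combination. Exposure lasted 8 h, and the labels list 5 µM for every group, DMSO included. All samples came from this single line, which limits the groups as a model. Treatment was in triplicate, and nothing in the sources says whether the replicates were cultured on different days. The p-values therefore set group differences against the spread between these samples, which may be technical.

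In cells leaving rest, growth signals through RAF, MEK and ERK raise D-type cyclins, which bind CDK4 and CDK6. These complexes phosphorylate the retinoblastoma protein and release E2F transcription factors, which drive genes for DNA synthesis and the E-type cyclins, the partners of CDK2. CDKN1A and CDKN1B bind the cyclin-CDK2 complexes and block their activity. In melanoma with mutant BRAF, the ERK pathway is constantly active and cyclin D1 is among the genes it sustains.

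The total count ran from 13510235 to 21534377 fragments per sample. Counts of replicates differed by more than sampling noise in every pair, with a chi-square per degree of freedom of 2.69 to 24.5, and both of the highest values involved tretinoin replicate 1, which stood apart from the other two. Values below are counts normalized by edgeR's TMM method to a library of average size, given with the SD over 3 replicates, and changes are log2 fold changes from a quasi-likelihood fit in edgeR, with p-values adjusted by Benjamini-Hochberg over all 16740 genes, called at an adjusted p below 0.05. Of 9 genes that report ERK output (phosphatases and feedback inhibitors such as DUSP6 and SPRY4, and transcription factors such as ETV5 and MYC), all 9 fell with vemurafenib and with the combination, with a median log2 fold change of -3.69 and -3.25. Of all genes tested, 26.3% and 26.5% were lower in these comparisons. Of 5 retinoid response genes, 3 rose with tretinoin alone and 5 with the combination, against 3.48% and 27.1% of all genes. With vemurafenib alone, RARB (2.80, adjusted p = 1.51e-08) and DHRS3 (1.74, adjusted p = 7.11e-11) rose too, while CYP26B1 and STRA6 fell. RARB was not called with tretinoin alone (0.82, adjusted p = 0.101), and CYP26A1 had 3 to 20 counts. In the combination against vemurafenib, 4 of the 5 were higher, against 2.27% of all genes. Most melanocyte markers were low: SOX10 had no count in any sample, TYR at most 1, DCT at most 18, MLANA at most 19 and PMEL at most 25. S100B had 84 to 206 counts and MITF 245 to 658, while AXL, a marker of dedifferentiated melanoma, had 5047 to 8429. Some markers of leukocytes (CD3E at most 9 counts, CD14 at most 10) and of epithelium (EPCAM at most 7, CDH1 at most 8) were at or near 0. Others were not: KRT14 had 64 to 580 counts, KRT5 25 to 86, PTPRC 13 to 83, PECAM1 5 to 36 and VWF 1 to 46. Of these markers, KRT14 (log2 fold change 1.24, adjusted p = 7.01e-05), PTPRC (1.36, adjusted p = 0.00161), VWF (2.13, adjusted p = 0.00132) and MITF (0.88, adjusted p = 1.25e-06) were higher with vemurafenib than in DMSO, and AXL was lower (-0.38, adjusted p = 0.00148). The same 5 were called in the combination against DMSO, with KRT14 at 1.32 (adjusted p = 3.49e-05), PTPRC at 1.77 (adjusted p = 9.51e-05), VWF at 2.04 (adjusted p = 0.00185), MITF at 0.64 (adjusted p = 4.77e-05) and AXL at -0.43 (adjusted p = 0.000544). With tretinoin alone PTPRC was higher (1.46, adjusted p = 0.0121). KRT5 was not called with vemurafenib (0.32, adjusted p = 0.444) or with the combination (-0.44, adjusted p = 0.31). Neither was S100B (0.02, adjusted p = 0.9, and 0.09, adjusted p = 0.614). All 3 dedifferentiation markers, AXL included, were lower with vemurafenib and with the combination. Among all genes tested, 26.4% were higher and 26.3% lower with vemurafenib. With the combination, 27.1% were higher and 26.5% lower. The part of these markers in the results below was not tested. In RNA from whole cultures, fewer cells of a kind and less RNA per cell cannot be told apart.

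RefSeq promoter windows (GRCh38.p14, from 250 bases before to 50 bases after a transcript start) were given for 6 of the 10 genes: CCND3, CCNE1, CDK4, CDK6, CDKN1A and CDKN1B. The 250 bases before the start are shown for 4 genes that stand for the 3 kinds of response described below: CCNE1, which fell with vemurafenib, CDK4, which was not called, and CDKN1A and CDKN1B, which rose. The CCNE1 window is chr19:29811741-29811990 (plus strand), the CDK4 window chr12:57752311-57752560 (minus strand), the CDKN1A window chr6:36678464-36678713 (plus strand) and the CDKN1B window chr12:12717118-12717367 (plus strand). Capitals mark the GC box (GGGCGG, either strand) in CCNE1 and CDKN1A, the E-box (CACGTG) in CDK4 and the CCAAT box (CCAAT, either strand) in CDKN1B.
CCNE1: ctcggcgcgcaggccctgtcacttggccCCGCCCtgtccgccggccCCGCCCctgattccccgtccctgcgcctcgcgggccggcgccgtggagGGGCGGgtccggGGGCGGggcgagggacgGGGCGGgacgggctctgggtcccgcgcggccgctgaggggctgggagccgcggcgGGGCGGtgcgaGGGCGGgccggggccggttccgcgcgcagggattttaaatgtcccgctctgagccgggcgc
CDK4: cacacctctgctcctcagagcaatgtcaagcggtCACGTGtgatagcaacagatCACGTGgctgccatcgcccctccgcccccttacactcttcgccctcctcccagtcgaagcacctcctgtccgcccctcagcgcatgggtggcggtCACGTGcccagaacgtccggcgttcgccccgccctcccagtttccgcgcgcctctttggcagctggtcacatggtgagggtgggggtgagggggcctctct
CDKN1A: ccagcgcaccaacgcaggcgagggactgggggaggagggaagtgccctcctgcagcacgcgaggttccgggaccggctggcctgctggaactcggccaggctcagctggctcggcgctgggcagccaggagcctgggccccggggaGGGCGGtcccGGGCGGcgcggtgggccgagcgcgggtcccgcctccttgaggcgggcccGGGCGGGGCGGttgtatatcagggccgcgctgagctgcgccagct
CDKN1B: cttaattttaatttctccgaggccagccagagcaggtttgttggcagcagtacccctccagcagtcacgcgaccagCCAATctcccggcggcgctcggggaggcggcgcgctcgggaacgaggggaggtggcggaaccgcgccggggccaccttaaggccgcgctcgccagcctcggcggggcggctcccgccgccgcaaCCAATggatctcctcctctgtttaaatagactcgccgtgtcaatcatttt

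CDK4 held 3 E-boxes, the letters bound by MYC and related factors, at positions -216, -196 and -101 from the start, where -1 is the base just before it. An E-box was present in 7.26% of the 35116 promoter windows of the table. CCNE1 held 7 GC boxes and CDKN1A 4, of which the last pair overlap by a base, and 45.0% of all windows held at least 1. GC boxes also stood in CCND3 (5 in window 1, 4 in window 2), CDK4 (3), CDK6 (3 in window 1) and CDKN1B (1). Those of CDK4 and CDKN1B are left unmarked above, so GC boxes stood in windows of all 3 kinds of response. Whether any marked motif goes with a kind of response was not tested. CDKN1B held 3 CCAAT boxes in its whole window, 2 of them before the start, and a CCAAT box was in 34.6% of all windows. CCND3 held 1 CCAAT box in window 2 and 1 in window 3. The windows were also searched on both strands for 6 other motifs. Of all windows, 7.71% held the AP-1 letters TGANTCA, and 1.85% held the CRE letters TGACGTCA. The E2F letters, TTTGGCGC or TTTCGCGC, were in 1.15% of windows. The FOXO letters TGTTTAC were in 3.42% of the windows. The ETS letters CCGGAAGT were in 4.14%, and those of the TATA box, TATAAA, stood in 11.5% of windows. Of these 6, FOXO letters in a CCND3 window were the only match, which says nothing of the factors where no match was found. A CDK6 window held 1 E-box, after the start. No motif searched contains the letters of another. These matches describe letters and were not tested as binding sites.

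Vemurafenib removed most of the cyclin D1 transcript. It lowered 6 of the 10 genes (CCND1, CCND3, CCNE1, CCNE2, CDK2 and CDK6) and raised 3 (CCND2, CDKN1A and CDKN1B), leaving CDK4 as the single gene that was not called. Across all genes tested, 26.3% were lower and 26.4% higher than in DMSO, so a large part of the transcriptome was called in each direction. The median log2 fold change was -0.80 over the 10 genes and 0.02 over all genes. For each of the 10, CDK4 included, the 3 vemurafenib samples lay entirely above or entirely below the 3 DMSO samples. How many of all genes showed such a gap was not counted, so it is not read as particular to these 10. The plot of counts by sample shows this gap gene by gene.

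**Figure D1:**
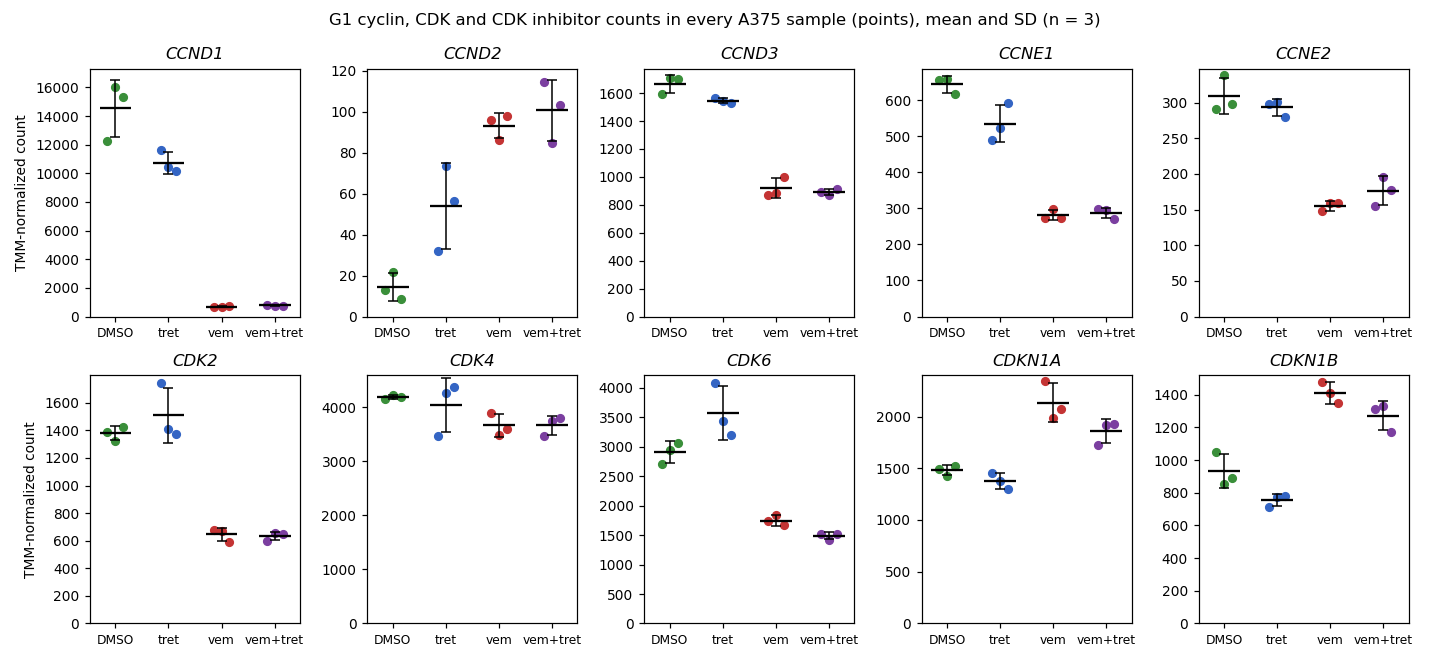
TMM-normalized counts (vertical axes, from 0) of the 10 genes in each of the 12 samples, by treatment (tret, tretinoin; vem, vemurafenib; vem+tret, combination). Points are samples, long bars are means and error bars are the SD of 3 replicates. CCND1 falls from 14527 in DMSO to 693 with vemurafenib, while CDKN1A and CDKN1B are higher with vemurafenib and CDK4 stays between 3464 and 4379 in all samples.

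CCND1 (ENSG00000110092.3, GRCh38 chr11:69641087-69654474, plus strand) encodes cyclin D1, the main D-type cyclin of many solid tumours. Its normalized counts were 12258, 15998 and 15325 in DMSO, against 655, 671 and 751 with vemurafenib and 833, 745 and 740 with the combination. All 6 samples that received vemurafenib were thus far below all 6 that did not. The log2 fold change was -4.39 with vemurafenib (SE 0.109, adjusted p = 3e-15), which is 21.0-fold lower, and -4.23 with the combination (SE 0.107, adjusted p = 2.96e-15), 18.8-fold lower. Tretinoin alone gave 11627, 10432 and 10171, each below every DMSO sample. That difference was -0.44 (SE 0.093, adjusted p = 0.0101), and it missed the threshold without DMSO replicate 2 (-0.36, adjusted p = 0.0731) and in a fit of the DMSO and tretinoin samples alone (adjusted p = 0.0731).

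CCND2 (ENSG00000118971.7, chr12:4273772-4305350, plus strand), encoding cyclin D2, moved in the opposite direction from a very low start. Raw counts were 11, 18 and 9 in DMSO, 24, 70 and 57 with tretinoin, 102, 99 and 90 with vemurafenib, and 115, 101 and 126 with the combination. The groups did not overlap with DMSO in any treatment. CCND2 rose by 1.96 on the log2 scale with tretinoin (SE 0.33, adjusted p = 0.0015), by 2.72 with vemurafenib (SE 0.303, adjusted p = 8.04e-07) and by 2.83 with the combination (SE 0.298, adjusted p = 4.05e-07). These standard errors are larger than those of CCND1, of which the libraries hold far more fragments.

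CCND3 (ENSG00000112576.12, chr6:41934933-42050357, minus strand), encoding cyclin D3, gave 1593, 1709 and 1700 in DMSO and 1564, 1542 and 1530 with tretinoin. It gave 874, 887 and 1000 with vemurafenib and 894, 870 and 915 with the combination. The fall was 0.86 with vemurafenib (log2 fold change -0.86, SE 0.067, adjusted p = 1.05e-08) and much the same in size with the combination (-0.90, SE 0.067, adjusted p = 5.14e-09). With tretinoin the difference was -0.11 (adjusted p = 0.34), with a 95% interval of -0.25 to 0.03.

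Because CCND1 fell so much further than CCND3, the makeup of the D cyclin transcripts changed. Levels of different genes were compared roughly, on a scale of library-scaled counts per kilobase of exon (CPM per kb). The length includes bases shared with other genes, where fragments were counted for no gene. These are 43.2% of CDK4 and 37.1% of CCNE2 bases, so the levels of CDK4 and CCNE2 may be too low. On this scale CCND1 stood at 166 ± 22.8 in DMSO and CCND3 at 15.9 ± 0.615. With vemurafenib they stood at 7.93 ± 0.591 and 8.78 ± 0.662, and their ranges overlapped. The summed level of the 3 D cyclins was 182 ± 23.5 in DMSO, 138 ± 8.93 with tretinoin, 17.4 ± 1.28 with vemurafenib and 18.1 ± 0.744 with the combination. CCND1 made up 91.2% ± 0.849 of that sum in DMSO, 89.0% ± 0.669 with tretinoin, 45.5% ± 0.234 with vemurafenib and 48.8% ± 1.64 with the combination. The shares of all 3 treatments lay below every DMSO share (exact two-sided permutation test, p = 0.1 for each, the smallest that 3 against 3 samples allow). CCND2 remained the smallest part, at 0.0611% in DMSO, 0.306% with tretinoin, 4.14% with vemurafenib and 4.28% with the combination. The split between CCND1 and CCND3 depends on the length assumed: with the longest transcript in place of all exons, CCND1 made up 82.7% in DMSO and 28.7% with vemurafenib.

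**Figure D2:**
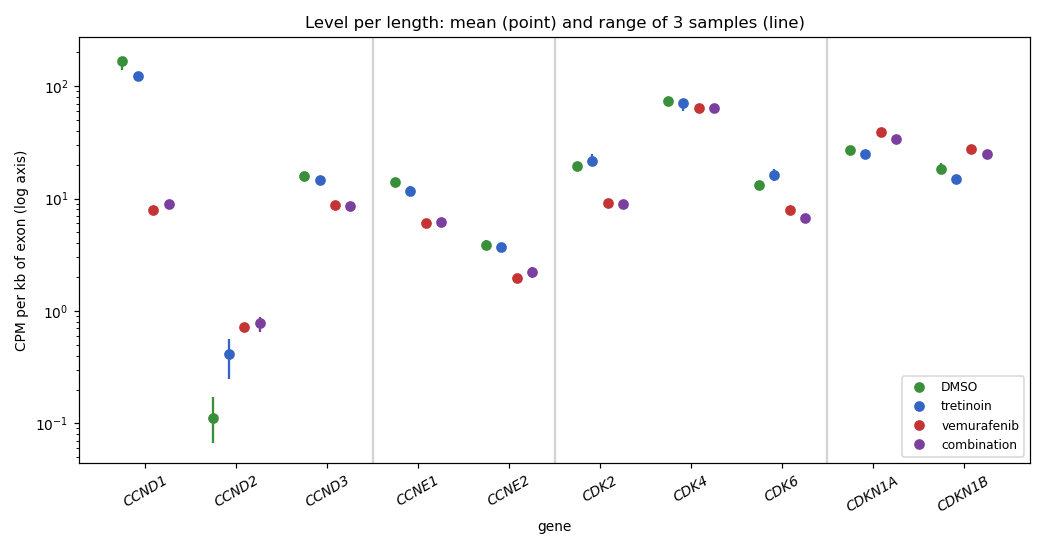
Level of each gene in CPM per kb of exon (log axis), by treatment. Points are means of 3 samples and lines run from the lowest to the highest sample. CCND1 is the highest of the 10 genes in DMSO at 166, drops to 7.93 with vemurafenib, and CDK4, at 63.9, is then the highest.

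CCNE1 (ENSG00000105173.13, chr19:29811898-29824308, plus strand), whose GC-rich promoter is shown above, encodes cyclin E1, the CDK2 partner that E2F induces. It gave 656, 659 and 616 in DMSO, 489, 524 and 591 with tretinoin, 274, 298 and 273 with vemurafenib, and 297, 295 and 272 with the combination. Every vemurafenib and combination sample was under every sample of the other groups. The log2 fold change was -1.19 with vemurafenib (SE 0.088, adjusted p = 5.12e-09) and -1.16 with the combination (SE 0.087, adjusted p = 5.77e-09). With tretinoin it was -0.26 (SE 0.085, adjusted p = 0.078), which passed the threshold when tretinoin replicate 3 was left out (-0.34, adjusted p = 0.0294).

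CCNE2 (ENSG00000175305.17, chr8:94879770-94896678, minus strand), encoding cyclin E2, gave 291, 338 and 298 in DMSO, 298, 301 and 280 with tretinoin, 147, 159 and 160 with vemurafenib, and 155, 196 and 178 with the combination. Its log2 fold change was -0.99 with vemurafenib (SE 0.106, adjusted p = 5.24e-07), -0.80 with the combination (SE 0.104, adjusted p = 4.37e-06) and -0.07 with tretinoin (adjusted p = 0.706). The E cyclins together stood at 17.9 ± 0.725 CPM per kb in DMSO and 8.07 ± 0.358 with vemurafenib. CCNE1 kept the larger share, at 78.2% ± 1.23 in DMSO and 75.7% ± 0.957 with vemurafenib, so their balance moved far less than that of the D cyclins. INTS8, on the opposite strand, covers most of the 37.1% of CCNE2 exon bases that overlap other genes. As these bases are part of the length, the CCNE2 level may be too low and the CCNE1 share too high.

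The kinases did not move as a group. CDK2 (ENSG00000123374.10, chr12:55966769-55972784, plus strand), the E cyclin partner, gave 1390, 1323 and 1425 in DMSO and 1741, 1408 and 1376 with tretinoin, where replicate 1 was the high sample. It gave 675, 669 and 592 with vemurafenib and 600, 654 and 647 with the combination. The log2 fold change was -1.10 with vemurafenib (SE 0.089, adjusted p = 1.55e-08) and -1.12 with the combination (SE 0.088, adjusted p = 9.95e-09). With tretinoin it was 0.13 (adjusted p = 0.402, 95% interval -0.05 to 0.31).

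CDK4 (ENSG00000135446.16, chr12:57747727-57756013, minus strand), a D cyclin partner and the gene with the 3 E-boxes shown above, had the smallest difference from DMSO of the 10 with vemurafenib. It gave 4149, 4222 and 4179 in DMSO, 3474, 4263 and 4379 with tretinoin, 3888, 3492 and 3600 with vemurafenib, and 3464, 3737 and 3793 with the combination. The vemurafenib and combination samples all lay below the DMSO samples, but the differences of -0.19 (SE 0.081, adjusted p = 0.0534) and -0.19 (SE 0.081, adjusted p = 0.0549) did not pass the threshold. Their 95% intervals, -0.36 to -0.02 for both, bound the fall. In fits of the 2 groups compared alone, both passed (adjusted p = 0.00635 with vemurafenib and 0.0197 with the combination), and the vemurafenib call also passed without vemurafenib replicate 1 (adjusted p = 0.0485). When libraries were scaled by their totals alone, the vemurafenib difference was 0.001. Of its exon bases, 43.2% overlap TSPAN31 on the opposite strand, whose mean count was 257 in DMSO and 438 with vemurafenib; fragments in the overlap were counted for neither gene.

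CDK6 (ENSG00000105810.9, chr7:92604921-92836594, minus strand), the other D cyclin partner, gave 2705, 2952 and 3068 in DMSO, 4078, 3437 and 3197 with tretinoin, 1735, 1840 and 1665 with vemurafenib, and 1524, 1425 and 1519 with the combination. It fell with vemurafenib (-0.74, SE 0.084, adjusted p = 1.11e-06) and with the combination (-0.97, SE 0.084, adjusted p = 3.9e-08). With tretinoin alone every sample was above DMSO and the difference of 0.29 (SE 0.083) was called at an adjusted p of 0.0454. Tretinoin replicate 1 was the highest sample, and without it the difference was 0.20 (adjusted p = 0.08). The call also failed without DMSO replicate 1 (0.141), 2 (0.125) or 3 (0.0584) and without tretinoin replicate 2 (0.0625), all adjusted p. The share of CDK4 may be too low throughout, as its length includes the bases that overlap TSPAN31. As CDK6 fell and CDK4 did not pass, CDK4 made up 84.8% ± 0.767 of the 2 kinases per length in DMSO, 81.2% ± 3.94 with tretinoin, 89.0% ± 0.869 with vemurafenib and 90.5% ± 0.633 with the combination. The last 2 groups lay above every DMSO sample (exact two-sided permutation test, p = 0.1 for each, the smallest possible).

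Both inhibitors rose with vemurafenib. CDKN1A (ENSG00000124762.13, chr6:36676460-36687339, plus strand), known as a target of p53, gave 1493, 1428 and 1526 in DMSO, 1452, 1375 and 1302 with tretinoin, 2344, 1986 and 2071 with vemurafenib, and 1725, 1917 and 1928 with the combination. All samples with vemurafenib were above all samples without it. The log2 fold change was 0.52 with vemurafenib (SE 0.075, adjusted p = 1.51e-05) and 0.33 with the combination (SE 0.075, adjusted p = 0.00147).

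CDKN1B (ENSG00000111276.10, chr12:12715058-12722371, plus strand), known as a target of FOXO factors, gave 1048, 853 and 893 in DMSO, 711, 776 and 780 with tretinoin, 1479, 1411 and 1346 with vemurafenib, and 1310, 1333 and 1173 with the combination. It rose by 0.60 with vemurafenib (SE 0.082, adjusted p = 8.86e-06) and by 0.45 with the combination (SE 0.082, adjusted p = 0.000175). Tretinoin alone went the other way, at -0.30 (SE 0.084, adjusted p = 0.0457), with every sample below DMSO. That call failed without DMSO replicate 1, the high sample (-0.21, adjusted p = 0.164), without DMSO replicate 3 (0.0649), and without tretinoin replicate 1 (0.101) or 2 (0.0722).

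Per length, the inhibitors together stood at 45.2 ± 2.51 CPM per kb in DMSO and 66.5 ± 4.46 with vemurafenib. Set over the summed D and E cyclins, their level was 0.229 ± 0.0411 in DMSO, 0.260 ± 0.0106 with tretinoin, 2.62 ± 0.287 with vemurafenib and 2.21 ± 0.115 with the combination. The ratio thus passed from well under 1 to above 1 in the samples with vemurafenib. With the longest transcript as the length, it was 0.227 in DMSO, 0.255 with tretinoin, 1.99 with vemurafenib and 1.71 with the combination. Over the same groups the summed D cyclins in its denominator went from 182 to 17.4 CPM per kb. It is a ratio of transcripts, not of proteins or complexes.

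**Figure D3:**
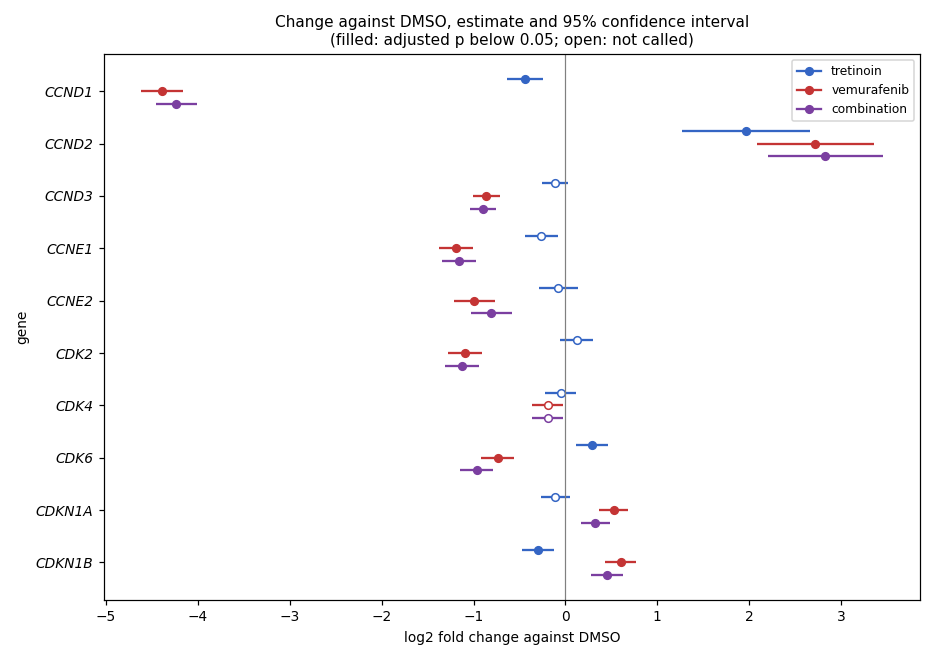
Log2 fold change against DMSO (horizontal axis) of the 10 genes with tretinoin, vemurafenib and the combination. Points are edgeR estimates, filled where the adjusted p is below 0.05, and lines are 95% confidence intervals. CCND1 lies at -4.39 and CCND2 at 2.72 with vemurafenib, and at -4.23 and 2.83 with the combination.

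With the combination, the same 6 genes as with vemurafenib were lower and the same 3 higher than in DMSO, against 26.5% lower and 27.1% higher among all genes tested; both comparisons use the same DMSO samples. The median log2 fold change was -0.85 over the 10 genes and 0.03 over all genes. All 9 calls in each of these comparisons held in the 6 fits that left out a replicate. They also held under the other tools, scalings and filters tried, except that CCND2 could not be tested when at least 10 counts were required in every sample.

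With tretinoin alone, 2 genes were called higher (CCND2 and CDK6) and 2 lower (CCND1 and CDKN1B), against 3.48% higher and 2.20% lower among all genes. The median over the 10 was -0.09 and over all genes 0.01. CCND2 was the call that held in all 6 fits without a replicate, with a log2 fold change between 1.66 and 2.38, while those of CCND1, CDK6 and CDKN1B did not, as given above for each gene.

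Whether tretinoin added to the effect of vemurafenib was asked by comparing the combination with vemurafenib. None of the 10 genes was called, against 2.27% higher and 2.20% lower among all genes. At an unadjusted p below 0.05 there were 2, CDK6 and CDKN1A, and DESeq2 called 0 with or without shrinkage. CDK6 was lower by 0.23 on the log2 scale (log2 fold change -0.23, 95% interval -0.41 to -0.05, adjusted p = 0.172), CDKN1A by 0.20 (-0.20, -0.36 to -0.04, adjusted p = 0.179) and CDKN1B by 0.15 (-0.15, -0.32 to 0.02, adjusted p = 0.433). In each of these 3, all combination samples were below all vemurafenib samples, and in the other 7 the groups overlapped. The share of all genes with such a gap was not counted, so these gaps are no evidence of an effect. In a fit of these 6 samples alone CDK6 passed (adjusted p = 0.0158). For CCND1 the difference was 0.16, with a 95% interval of -0.05 to 0.37. The values for CCND2 were 0.11 and -0.34 to 0.56.

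Compared with tretinoin alone, the combination was higher for 3 genes and lower for 6, against 24.1% and 25.0% among all genes. These were the genes that vemurafenib moved against DMSO, in the same directions. CCND1 was 13.9-fold lower (-3.80, SE 0.105, adjusted p = 1.17e-14), CDK6 2.40-fold lower (-1.26, SE 0.085, adjusted p = 1.48e-09) and CDK2 2.37-fold lower (-1.25, SE 0.088, adjusted p = 2.85e-09). CDKN1B was 1.68-fold higher (0.75, SE 0.083, adjusted p = 8.91e-07) and CDKN1A 1.35-fold higher (0.43, SE 0.075, adjusted p = 0.000127). CDK4 differed by -0.14 (adjusted p = 0.16), and passed without tretinoin replicate 1 (-0.24, adjusted p = 0.00268).

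The interaction, the tretinoin effect in the presence of vemurafenib minus that in its absence, was called for 2 of the 10 genes, both lower, and for 0.382% of all genes higher and 0.424% lower. CCND2 gave -1.85 (SE 0.398, adjusted p = 0.0368): tretinoin raised it by 1.96 on its own and the difference was 0.11 on top of vemurafenib. CDK6 gave -0.53 (SE 0.118, adjusted p = 0.046): its difference was 0.29 with tretinoin alone and -0.23 on top of vemurafenib. Neither call was firm. With a replicate left out, CCND2 passed in 2 of 12 fits (without DMSO replicate 2 or tretinoin replicate 1) and CDK6 in 2 of 12 (without tretinoin replicate 1 or 3), and the highest adjusted p was 0.112 for CCND2 and 0.146 for CDK6. CCND1 gave 0.59 (SE 0.137, adjusted p = 0.0509), just past the threshold on the other side, and passed with DESeq2 (0.60, adjusted p = 0.00563), without DMSO replicate 1 (adjusted p = 0.01) and without tretinoin replicate 1 (adjusted p = 0.00411).

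**Figure D4:**
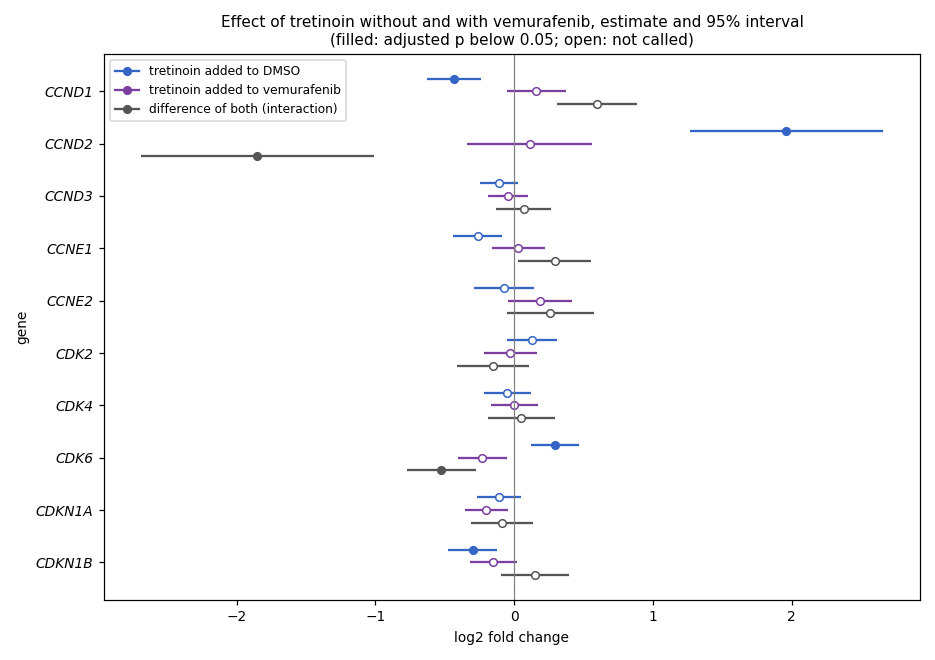
Effect of tretinoin (log2 fold change, horizontal axis) on the 10 genes without vemurafenib (against DMSO), with vemurafenib (combination against vemurafenib) and the interaction, their difference. Points are edgeR estimates, filled where the adjusted p is below 0.05, with 95% intervals as lines. CCND2 stands at 1.96 without and 0.11 with vemurafenib, and no gene is called on top of vemurafenib.

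The other genes of the G1/S machinery were examined as a list of 24, of which 22 passed the count filter; CDKN2B and CDK3, with at most 2 and 7 counts in any sample, did not. With vemurafenib, 14 fell and 3 rose, with a median of -0.36, and with the combination 14 fell and 3 rose, with a median of -0.38. The genes were not all the same. RBL2 (higher) and CKS1B (lower) were called with vemurafenib and not with the combination. FBXO4 (higher) and CCNA1 (lower) were called with the combination and not with vemurafenib. Among all genes tested, 26.3% were lower and 26.4% higher with vemurafenib, with a median of 0.019, and 26.5% were lower and 27.1% higher with the combination, with a median of 0.025. CDC25A, the phosphatase that activates CDK2, fell furthest with vemurafenib (-1.83, SE 0.077, adjusted p = 2.87e-12). The E2F factors E2F1 (-1.33, adjusted p = 3.15e-11), E2F3 (-0.84, adjusted p = 1.35e-07) and E2F2 (-0.63, adjusted p = 1.33e-05) and their partner TFDP1 (-0.76, adjusted p = 9.94e-09) fell with vemurafenib too. RB1, the retinoblastoma gene itself, was not called in vemurafenib (-0.03, SE 0.094, adjusted p = 0.821). SKP2, which marks CDKN1B protein for destruction, fell (-0.51, adjusted p = 2.61e-05).

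Other CDK inhibitor genes moved in both directions. CDKN1C (p57), from the same family as CDKN1A and CDKN1B, rose most with vemurafenib (2.17, SE 0.118, adjusted p = 8.66e-11) and rose less with the combination (1.20, SE 0.12, adjusted p = 2.23e-07). Of the 22, it was the only gene called between the combination and vemurafenib (-0.98, SE 0.106, adjusted p = 1.17e-05). In that comparison 2.27% of all genes were higher and 2.20% lower. CDKN1C also fell with tretinoin alone (-0.65, SE 0.139, adjusted p = 0.0101). CDKN2C (p18), an inhibitor of CDK4 and CDK6, rose with vemurafenib (1.09, adjusted p = 1.07e-08) and the combination (1.06, adjusted p = 1.4e-08), while CDKN2D (p19), of the same family, fell with vemurafenib (-0.89, adjusted p = 3.85e-05). With tretinoin alone, where 2.20% of all genes were lower and 3.48% higher, 4 of the 22 were lower and 0 higher: CCNA1 (-0.76, adjusted p = 0.000606), CDKN1C, CDKN2C (-0.32, adjusted p = 0.0372) and CDK7 (-0.28, adjusted p = 0.0267). None of the 22 was called for the interaction in edgeR's test.

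**Figure D5:**
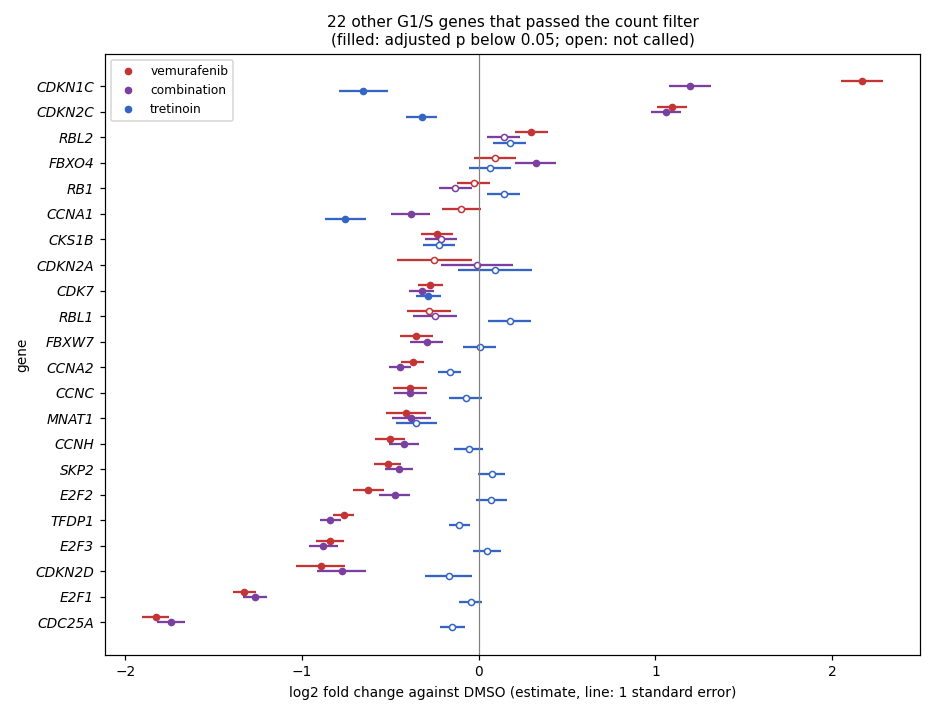
Log2 fold change against DMSO (horizontal axis) of the 22 other G1/S genes that passed the count filter, ordered by their change with vemurafenib. Points are edgeR estimates, filled where the adjusted p is below 0.05, and lines span 1 standard error to each side. CDKN1C lies at 2.17 with vemurafenib and 1.20 with the combination, and CDC25A at -1.83 with vemurafenib.

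As CDKN1A is a p53 target, 9 other p53 target genes were looked at: 6 rose and 2 fell with vemurafenib (median 0.45). TP53INP1 rose by 2.83 (SE 0.231, adjusted p = 1.73e-08) and SESN1 by 0.99 (SE 0.094, adjusted p = 1.24e-07), whereas GDF15 fell (-0.59, SE 0.147, adjusted p = 0.00282) and MDM2, the p53 inhibitor, was not called (0.07, adjusted p = 0.489). Of 6 FOXO target genes, chosen beside CDKN1B, 2 rose and 3 fell with vemurafenib (median -0.16); SESN3 rose by 2.67 (SE 0.135, adjusted p = 3.52e-11) and KLF6 fell (-0.95, SE 0.08, adjusted p = 2.9e-08). Neither list moved in a single direction, and among all genes 26.4% rose and 26.3% fell in the same comparison.

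The genes whose profiles over the 12 samples were most like those of 4 members were found among 8401 well expressed genes, by the distance between log2 CPM profiles centred on their own means. SPRY2, an ERK feedback inhibitor, was nearest to CCND1 (distance 0.783), followed by FST (1.17) and IGFBP3 (1.29). DSCC1, MIER2 and TOMM40 were nearest to CCNE1 (0.282, 0.283 and 0.299), and PPRC1, SLC37A3 and GRAMD1B to CDK2 (0.200, 0.231 and 0.271). PCYT2, PNMA1 and FECH were nearest to CDKN1B (0.318, 0.336 and 0.360). The 12 samples fall into 4 treatments, which all these profiles share.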

How the data were processed

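Polyadenylated RNA of 12 A375 samples was sequenced. Per the labels and the study's methods, the authors aligned reads with STAR 2.5.3a to GRCh38 and deposited raw counts of fragments per GENCODE 27 gene, counted over the union of exons with the strand ignored and without normalization. A fragment over exons of overlapping genes was counted for none, which bears on CDK4 and CCNE2 most.

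Counts were filtered with filterByExpr, normalized by TMM and fitted with edgeR 4.0.16 (R 4.3.3) quasi-likelihood tests over all 12 samples with a term per group. P-values were adjusted by Benjamini-Hochberg within each comparison (threshold 0.05). Common dispersion was 0.0065. Normalized counts were scaled to a library of 18070152 fragments. Intervals are 95% confidence intervals of the log2 fold change, based on the spread between samples. Gene positions and lengths came from GENCODE 29, in which 58039 of the 58347 identifiers were found. Member transcripts were compared with all others by blastn 2.17.0 (at least 150 bases at 98% identity), which found overlapping neighbours and no other gene. Alternatives were DESeq2 1.42.0 with and without a beta prior, its size factors, library totals, other filters, fits of the compared groups alone, a block for the replicate number, and each replicate left out.

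The members and lists were chosen with earlier results of these data known. Named genes were all 10 members, called or near-absent genes of the lists, and the 3 nearest profiles of CCND1, CCNE1, CDK2 and CDKN1B. Some list genes that were neither called nor near-absent, such as MDM2 and S100B, were named too. Not every called gene of the lists is printed.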

Additional observations from a re-analysis of the deposited data

Results flagged for a closer look

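The tretinoin effect differed with and without vemurafenib for 2 of the 10 genes by the interaction test in edgeR (Benjamini-Hochberg adjusted). The difference was -1.85 on the log2 scale for CCND2 (adjusted p = 0.0368) and -0.53 for CDK6 (adjusted p = 0.046). For CCND2, the rise with tretinoin alone was seen in 3 of 3 samples, and in the combination the counts were already near those with vemurafenib alone. For CDK6, 3 of 3 tretinoin samples were above all DMSO samples, and 3 of 3 combination samples were below all vemurafenib samples. For both genes the interaction test used these same samples, and the share of all genes with such gaps was not counted. The gaps are therefore no further evidence of an effect. The difference between combination and vemurafenib was itself not called for CDK6 (-0.23, adjusted p = 0.172 in edgeR's test). Both interaction calls were lost in 10 of 12 fits with a replicate left out, so they rest on narrow margins. Groups of 3 samples were not screened for outlying samples.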

How the results depend on the processing

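All calls against DMSO with vemurafenib and with the combination, 9 members each, held under every alternative that could be fitted, and CCND2 could not be fitted with at least 10 counts in every sample. Calls with tretinoin and for the interaction depended on the settings. For tretinoin against DMSO (4 members, 951 of all genes called), 2 members were called with at least 10 counts in every sample, 1 member and 313 genes with only the groups compared, and 1540 genes without a filter; with a replicate left out, 2 to 5 members and 378 (without DMSO replicate 2) to 1418 genes. For the combination against vemurafenib (0 members, 749 genes), only the groups compared gave 1 member and 1268 genes, and leaving out a replicate 458 to 589 genes. For the interaction (2 members, 135 genes), 1 member was called with at least 10 counts, 276 genes with DESeq2, 277 with its beta prior and 610 without a filter; leaving out a replicate gave 0 to 3 members and 57 to 283 genes. The cause was not tested.

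Deviations of samples with the same replicate number had a mean correlation of -0.031 over 18 pairs (-0.143 to 0.087). For samples with different numbers it was 0.015 over 36 pairs (-0.106 to 0.112). Samples of the same number were thus no more alike, which cannot show whether they were cultured or processed together. With the replicate number as a block, 2 members were called for tretinoin, and 0 members and 75 genes for the interaction (adjusted p = 0.0775 for CCND2 and 0.102 for CDK6); CDK6 (0.0842) and CDKN1B (0.0738) were those lost for tretinoin, and the block changed no other member call.

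Values near 0 changed sign. For CDK4 in the combination against vemurafenib (0.002), the value was -0.001 with DESeq2, its beta prior, its size factors or the replicate block, -0.03 with library totals, and between -0.032 and 0.045 with a replicate left out. Library totals also gave 0.02 for CDK4 with tretinoin, 0.001 for CDK4 with vemurafenib, -0.003 for CCNE1 in the combination against vemurafenib, and -0.038 for CCND3 and -0.049 for CDK4 in the interaction. Leaving out a replicate moved CDK4 with tretinoin between -0.112 and 0.058, CDK4 in the interaction between -0.058 and 0.114, and, in the combination against vemurafenib, CDK2 between -0.083 and 0.011 and CCND3 between -0.081 and 0.02. Library totals shifted the median log2 fold change of all genes to 0.214 with vemurafenib, 0.187 with the combination, 0.107 for the combination against tretinoin and -0.114 for the interaction. They moved the share of called genes that were higher from 61.3% to 81.3% with tretinoin, 50.1% to 71.4% with vemurafenib, 50.5% to 68.2% with the combination, 49% to 60.7% against tretinoin and 47.4% to 21.4% for the interaction. Levels per length depended on the length assumed. Depth limits CCND2 most, with 9 to 18 raw counts in DMSO.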
